A study of Zanthoxylum armatum with 15 samples.

Results

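GGPPS12 is the name given here to 1 unigene, Cluster-12235.40340, of the 111318 unigenes assembled from *Zanthoxylum armatum*, the green Sichuan pepper. It was taken by its identifier, and its estimated count and its FPKM (fragments per kilobase of unigene, scaled to all fragments counted in the library) were read in all 15 libraries. RNA was sequenced from 5 organs of 3-year-old cultivated plants of this species: fruits, leaf buds, mature leaves, stems and roots (Fr, LB, ML, St and Ro). No organ was treated, each organ had 3 biological replicates, and each replicate was a mixture of 3 plants, so values of single plants and of single cell types were not resolved. This unigene and the terpenoid list used below were chosen by the study for their higher counts in fruits than in the other organs of these same libraries. All values that set fruits against another organ are therefore given as a description without a test, and tests were run only between the other 4 organs.

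Prenyl diphosphate synthases join the isoprenoid units made by the mevalonate (MVA) pathway of the cytosol and the methylerythritol phosphate (MEP) pathway of plastids. Their products are the precursors of monoterpenes, diterpenes, carotenoids, the side chain of chlorophyll and other terpenoids. In *Arabidopsis thaliana*, GGPPS11 is a large subunit that forms geranylgeranyl diphosphate by itself. GGPPS12 (AtSSU, also AtGGR), the best match of this unigene, is a small subunit that makes no geranylgeranyl diphosphate alone and binds GGPPS11, and the pair can release geranyl diphosphate, the precursor of monoterpenes. These roles come from *Arabidopsis thaliana* and were not measured in *Z. armatum*. The aroma of pepper fruits rests largely on monoterpenes such as linalool and limonene.

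The designed sequences that identify GGPPS12 at the bench are the primers used for its quantitative PCR, shown because they are the stretches by which its transcript can be assayed again. The primers of TPS03, a monoterpenoid synthase unigene (Cluster-12235.42010) whose organ pattern is set beside that of GGPPS12 below, follow them. All are written 5′ to 3′ in lower case, with no part marked. The unigene sequences themselves were not used here, so the place of the primers in each unigene was not looked up. The PCR values were not analysed here.
GGPPS12 forward: gcctagtcttattcccaaatccaag
GGPPS12 reverse: gtgttatctcaaccatagcccgta
TPS03 forward: gcaggaagatacttacgcaggtc
TPS03 reverse: tttcatgtaatctggaagcggtt

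Each library held between 18802274 and 24081708 estimated fragments in all. Of the 111318 unigenes, 57488 passed the filter on low counts and were tested, GGPPS12 among them, which also passed in the 12 libraries without fruits. The copy of the antenna protein list that was held (20 of 34 unigenes, light-harvesting proteins of green tissue) summed to between 10062 and 11721 FPKM in fruits, 6503 and 8995 FPKM in leaf buds, 27128 and 27688 FPKM in mature leaves, and 9611 and 10361 FPKM in stems. In roots the same unigenes summed to between 17.5 and 27.4 FPKM, and 3 of the 20 had no count there. Antenna transcripts were thus abundant in the 4 shoot organs and near absent from roots, as the organ labels say.

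GGPPS12 was a fruit transcript in these libraries, with a low level in leaf buds, a trace in mature leaves and stems, and no count in roots. In fruits its level was 676, 770 and 625 FPKM in the 3 libraries, a mean of 690 ± 73.8 FPKM (SD, n = 3). In leaf buds the 3 libraries had 6.30, 6.71 and 3.83 FPKM, a mean of 5.61 ± 1.56 FPKM (SD, n = 3). The lowest fruit library was thus far above the highest library of any other organ, and the third leaf bud library was the lowest of its organ. In mature leaves the level was 0.63, 0.63 and 0.69 FPKM, a mean of 0.65 ± 0.035 FPKM (SD, n = 3). In stems it was 0.19, 0.36 and 1.18 FPKM, a mean of 0.58 ± 0.53 FPKM (SD, n = 3). Among the organs with counts, the mature leaf libraries lay closest together. They held only 15 to 18 fragments each, so this evenness is not read as a trait of the organ. In stems 1 library, replicate 3, lay above all mature leaf libraries, and the other 2 stem libraries lay below them. In roots GGPPS12 was listed at 0 in all 3 libraries.

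**Figure D1:**
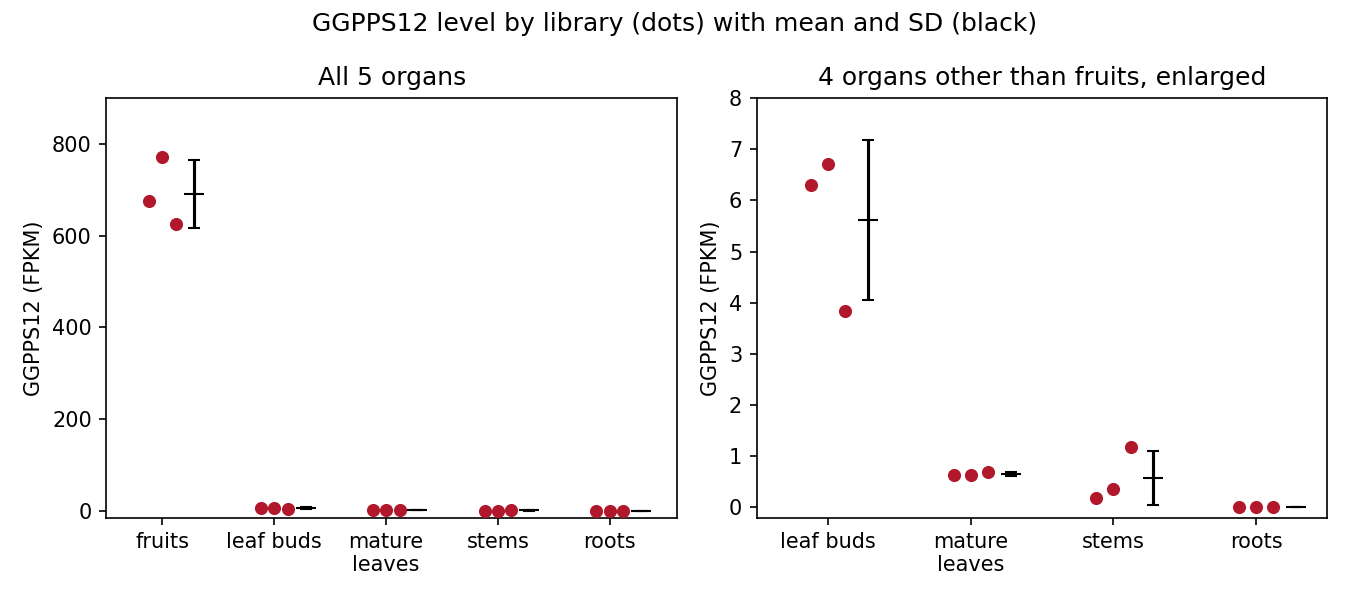
Level of GGPPS12 (FPKM) in each library, as 1 dot per library with the organ mean and SD in black (n = 3 libraries per organ); the right panel enlarges the 4 organs other than fruits. Fruit libraries lie between 625 and 770 FPKM, leaf bud libraries between 3.83 and 6.71 FPKM, and root libraries at 0.

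The counts behind these levels show how much each value can bear. Fruit libraries held 15582, 21918 and 15895 estimated fragments of GGPPS12, leaf buds 177, 190 and 100, mature leaves 15, 16 and 18, and stems 4.74, 10 and 31. The stem and mature leaf levels thus rest on 46 and 49 rounded fragments over the 3 libraries of each organ. For roots, with a count of 0, a floor of 3 counts over the 3 libraries was set, which is 0.0452 CPM. The upper 95% limit for this count was 3.69 counts, or 0.0556 CPM. The at-least ratios below use the floor and would be lower with that limit. CPM here is the count relative to the effective library size, which TMM (the trimmed mean of M-values) adjusts between libraries, and it takes no account of length. The floor and the limit cover counting error only.

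Of the summed organ means in FPKM, fruits held 99.0%, leaf buds 0.81%, mature leaves 0.093% and stems 0.083%. Within the fruit libraries GGPPS12 ranked between 103 and 128 of 111318 unigenes by FPKM, and in leaf buds between 24127 and 33252. On the scale of TMM-normalized CPM the mean was 928 in fruits and 5.89 in leaf buds, a ratio of 158. It was 928 in fruits and 0.946 in mature leaves, a ratio of 981. Against stems, at 0.638 CPM, the ratio was 1455, or 10.51 on the log2 scale, and without stem replicate 3 it was 11.56 on the log2 scale. Against roots, fruits were at least 20533-fold higher when roots are set at 3 counts over the organ. These ratios describe the contrast by which the unigene was chosen. Of all tested unigenes, 5.67% had all 3 fruit libraries above the other 12, as GGPPS12 did. In such bulk organs, fewer cells of a type and less RNA per cell cannot be told apart.

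Because the choice of GGPPS12 did not use the differences among leaf buds, mature leaves, stems and roots, these were tested. Leaf buds stood above the other 3 organs: each leaf bud library was above all 9 libraries of mature leaves, stems and roots, which was also true of 10.5% of all tested unigenes. Mature leaves had 0.910, 0.918 and 1.01 CPM of GGPPS12, against 6.64, 7.11 and 3.92 CPM in leaf buds. The groups did not overlap, and mature leaves were at 0.161 of the leaf bud level, a log2 fold change of -2.63 (SE 0.34, adjusted p = 2.3e-06, edgeR quasi-likelihood test with Benjamini-Hochberg adjustment). A difference past the same threshold (adjusted p under 0.05 and absolute log2 fold change over 1) was found for 33.7% of all tested unigenes in this comparison. GGPPS12 was therefore lower in the expanded leaf than in the bud, in a comparison in which many unigenes differed.

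Leaf buds had 6.64, 7.11 and 3.92 CPM of GGPPS12, against 0.217, 0.40 and 1.30 CPM in stems. Leaf buds were 9.23-fold higher, a log2 fold change of 3.20 (SE 0.34, adjusted p = 5.1e-07, edgeR), and the groups did not overlap. Stem replicate 3 set much of the stem mean, since the log2 fold change was 4.20 without it. In this comparison 18.7% of all tested unigenes were called. Mature leaves and stems could not be ranked: mature leaves had 0.910, 0.918 and 1.01 CPM, and the stem libraries lay on both sides of them. The log2 fold change of mature leaves over stems was 0.56 (SE 0.48, adjusted p = 0.35, edgeR), while 33.9% of all tested unigenes were called. Without stem replicate 3 mature leaves were higher, with a log2 fold change of 1.59 (SE 0.46, adjusted p = 0.0099), so 1 library decides this comparison.

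Other unigenes with a high fruit mean were also read in the stem libraries. A list of the 20 unigenes with the highest fruit mean among those with no count in roots, GGPPS12 left out, summed to between 17126 and 25128 CPM in fruits, 189 and 267 CPM in leaf buds, and 643 and 656 CPM in mature leaves. In stems it summed to 143, 140 and 97.0 CPM, and among the 16 of 20 members with counts in stems, 4 were highest in replicate 1, 7 in replicate 2 and 5 in replicate 3. In stems GGPPS12 was at 0.069% of its fruit mean, with 7 of 20 below it, and the median unigene of the list was at 0.41%. In leaf buds GGPPS12 was at 0.63%, with 13 of 20 below it, and the median was 0.30%. Members of the list ranged from 0 to 57.1% of their fruit mean in leaf buds, from 0 to 256% in mature leaves and from 0 to 44.7% in stems, so the list as a whole had no common ratio and a few members can set its sum. TPS03 was, like GGPPS12, highest in stem replicate 3, with 8.63 FPKM there and 5.47 and 4.79 FPKM in replicates 1 and 2. Whether fruit material contributed to the low levels outside fruits was not tested.

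Roots held no fragment of GGPPS12, and each shoot organ was above them. Leaf buds were at least 130-fold higher than roots (adjusted p = 2.2e-09, edgeR), in a comparison in which 41.4% of tested unigenes were called. Mature leaves were at least 20.9-fold higher than roots (adjusted p = 6.5e-05, edgeR), where 39.9% were called. Roots were at least 14.1-fold lower than stems (adjusted p = 3.1e-04, edgeR), where 35.3% were called, and without stem replicate 3 the bound was 6.82-fold and the adjusted p 0.0014. These bounds set roots at 3 counts over the organ, because a fitted fold change against 0 depends on the prior count. With 15 to 18 counts per mature leaf library and 4.74 to 31 per stem library, the 2 smaller differences rest on few fragments. The order over the organs was thus fruits, leaf buds, then mature leaves and stems, which did not differ beyond their spread, then roots.

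**Figure D2:**
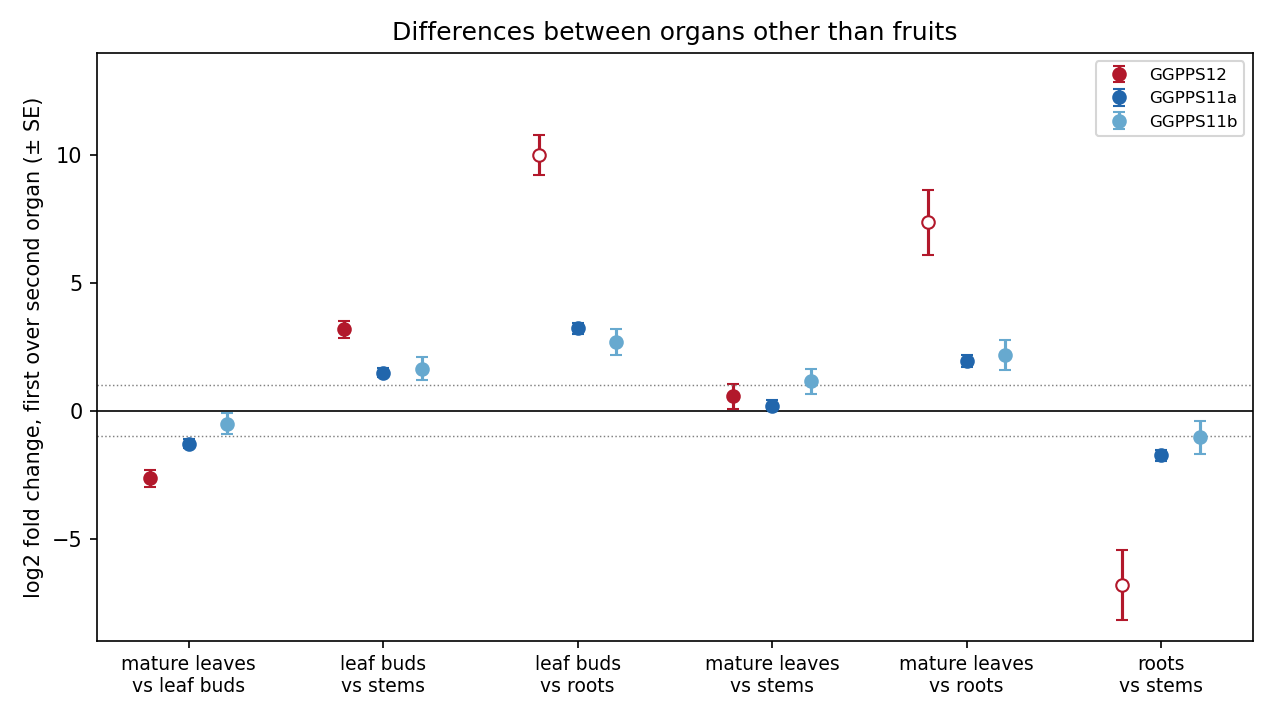
Log2 fold change of the first organ over the second for GGPPS12 and the pair of GGPPS11 unigenes, with SE, from 1 edgeR fit of 15 libraries; dotted lines mark a log2 fold change of 1 in each direction. Open symbols mark GGPPS12 in comparisons with roots, where it had no count and the fitted value depends on the prior count; the log2 fold change of GGPPS12 was -2.63 for mature leaves over leaf buds and 0.56 for mature leaves over stems.

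GGPPS12 is 1 of 4 unigenes on the terpenoid list annotated as geranylgeranyl diphosphate synthases. Cluster-12235.57254 and Cluster-12235.36761, in this order, both match *Arabidopsis* GGPPS11, the large subunit, and are called GGPPS11a and GGPPS11b here, and Cluster-12235.54676 matches GGPPS2. How fragments common to similar unigenes were counted is not known, which makes the split between the GGPPS unigenes uncertain, and whether GGPPS11a and GGPPS11b belong to 1 gene was not tested. For GGPPS12 itself, 4 of 15 estimated counts were not whole.

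GGPPS11a was also highest in fruits, but it was present in every library. It had 43.3, 54.7 and 47.1 FPKM in fruits, against 14.7, 17.0 and 20.1 FPKM in leaf buds. It had 5.69, 4.96 and 4.61 FPKM in mature leaves, 6.77, 5.57 and 5.26 FPKM in stems, and 2.28, 0.91 and 2.06 FPKM in roots. The range over the organs was far narrower than that of GGPPS12: the ratio of mean CPM of fruits over leaf buds was 158 for GGPPS12 and 3.60 for GGPPS11a. Between the other organs GGPPS11a was called wherever GGPPS12 was called, in the same direction. Its log2 fold change was -1.28 for mature leaves over leaf buds (SE 0.19, adjusted p = 6.1e-06, edgeR) and 1.49 for leaf buds over stems (SE 0.18, adjusted p = 1.7e-06, edgeR). For mature leaves over stems it was 0.21 (SE 0.20, adjusted p = 0.41, edgeR), a difference within the threshold as for GGPPS12.

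GGPPS11b was lower throughout. It had 15.3, 19.2 and 16.4 FPKM in fruits, against 1.08, 0.58 and 1.67 FPKM in leaf buds. Mature leaves had between 0.49 and 0.64 FPKM, stems between 0.12 and 0.50 FPKM, and roots between 0.07 and 0.27 FPKM. Leaf buds were above stems (log2 fold change 1.65, SE 0.44, adjusted p = 0.0051, edgeR) and above roots (2.69, SE 0.52, adjusted p = 1.4e-04, edgeR). Mature leaves were at -0.50 on the log2 scale relative to leaf buds (SE 0.40, adjusted p = 0.33, edgeR), so the lower level in mature leaves that GGPPS12 showed did not pass the threshold for this unigene. Whether the 2 unigenes differ in this change was not tested.

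GGPPS2 was the least abundant of the 4. It had 2.33, 2.82 and 3.19 FPKM in fruits, against 0.25, 0.37 and 0.20 FPKM in leaf buds. It was listed at 0 in all mature leaf and root libraries and had 2 counts in 1 stem library, replicate 3. The 3 leaf bud libraries held 13 counts in all, and GGPPS2 passed the filter on low counts only through fruits, so no test between the other organs is given for it.

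**Figure D3:**
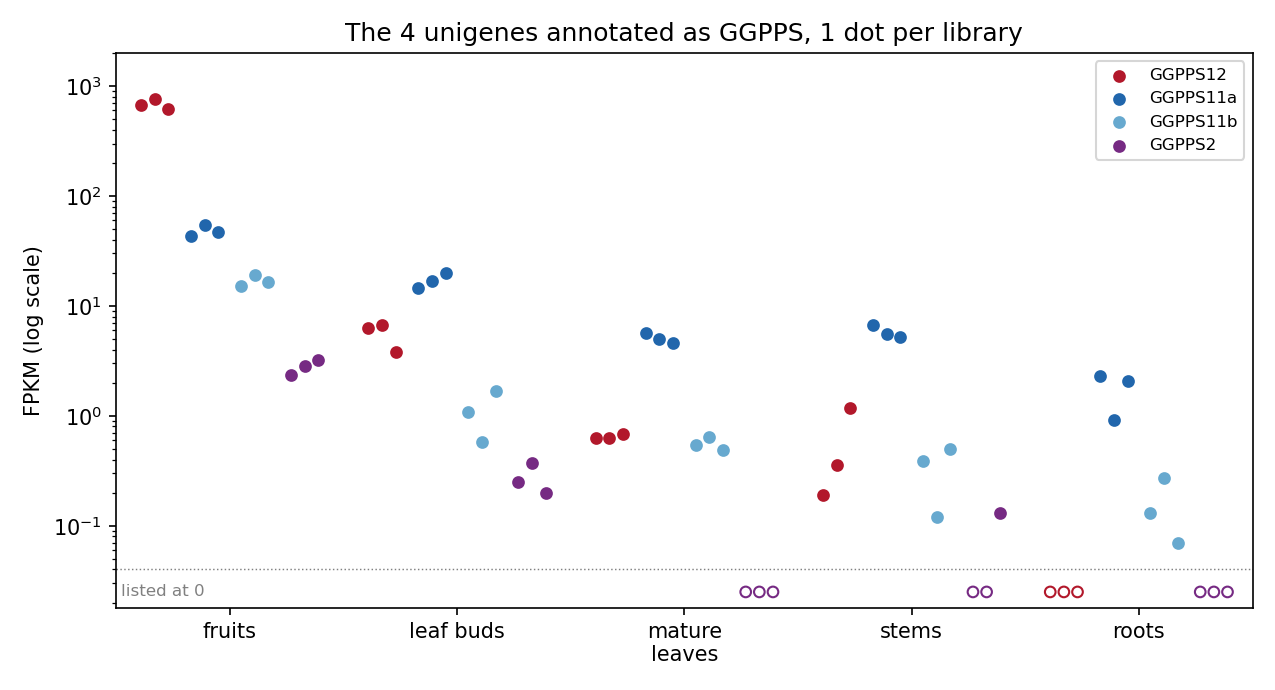
FPKM on a log scale of the 4 unigenes annotated as GGPPS, with 1 dot per library and open symbols for libraries listed at 0. GGPPS12 is the highest of the 4 in fruits, with 625 to 770 FPKM, and lies below GGPPS11a in every library of the other organs.

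Since FPKM is per unigene length, the level of GGPPS12 was also set against the other GGPPS unigenes of the same library. In fruits GGPPS12 made up 91.7%, 90.9% and 90.4% of the summed FPKM of the 4 unigenes. In leaf buds it made up 28.3%, 27.2% and 14.8%, and in mature leaves 9.18%, 10.1% and 11.9%. In stems it made up 2.58%, 5.95% and 16.7%, and in roots 0% in each library. Among these 4, the unigene annotated as the small subunit thus held most of the FPKM in fruits, and the GGPPS11 unigenes in all other organs. All 4 come from the list chosen as higher in fruits. A GGPPS unigene outside that list is not counted, so the main GGPPS transcript of an organ cannot be named. Expressed as a ratio to the summed FPKM of the GGPPS11 pair, GGPPS12 stood at 10.6 ± 0.86 in fruits, 0.32 ± 0.12 in leaf buds, 0.12 ± 0.017 in mature leaves and 0.098 ± 0.094 in stems (SD, n = 3 libraries each).

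Over the 12 libraries other than fruits the share differed between the 4 organs (exact permutation test of the Kruskal-Wallis statistic over 369600 assignments, p = 0.0057, 1 test). That difference rested on the roots at 0%: over leaf buds, mature leaves and stems alone p was 0.13 (exact permutation test, 1680 assignments). Leaf buds at 14.8% to 28.3% overlapped stems at 2.58% to 16.7%, and mature leaves lay within the stem range. The overlap of leaf buds with stems came from leaf bud replicate 3, which had the least GGPPS12 and the most GGPPS11 of its organ, and from stem replicate 3. With stem replicate 3 left out no organ overlapped another. Over the 4 organs p was then 1.9e-04 (exact permutation test, 92400 assignments), so 1 library weighs on this result. A pair of organs with 3 libraries each cannot give a two-sided p below 0.10 in such a test, so no pair was tested.

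**Figure D4:**
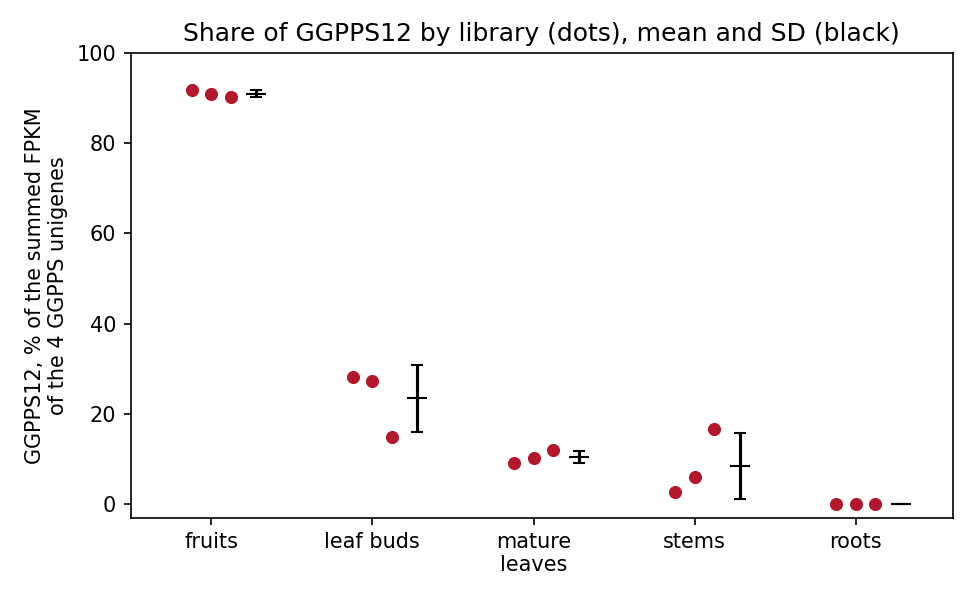
FPKM of GGPPS12 as a percentage of the summed FPKM of the 4 GGPPS unigenes, 1 dot per library, with organ mean and SD in black (n = 3 libraries per organ). Fruit libraries lie between 90.4% and 91.7%, and no library of another organ exceeds 28.3%.

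The other 46 unigenes of the terpenoid list give the pathway around GGPPS12. All 46 passed the filter, 43 of them also without the fruit libraries, and all 46 had their highest mean in fruits, which is how the study chose them. Calls are counted below over these 43, a choice made after seeing the data; the other 3 were GGPPS2, a terpene synthase unigene and an AAS (aromatic aldehyde synthase) unigene. Over fruits GGPPS12 ranked 3, 3 and 4 of the 47 unigenes by FPKM in replicates 1, 2 and 3. In leaf buds it ranked between 28 and 37, in mature leaves between 37 and 40, and in stems between 37 and 43. Its place in the list was therefore high in fruits and low elsewhere. Among the 46 others, leaf buds were the second organ for 25, mature leaves for 16, stems for 3 and roots for 2. Of all tested unigenes, 23.7% had leaf buds as the highest of the 4 organs, 29.9% mature leaves, 15.7% stems and 30.6% roots. The 46 include the 3 that passed the filter only through fruits, and the tested unigenes were not chosen as higher in fruits. These shares are therefore not like for like, and nothing particular to the list is read from them.

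Most list members that differed between shoot organs and roots were higher in the shoot. In leaf buds over roots 27 of 43 were higher and 0 lower, with a median log2 fold change of 1.60, against 22.8% higher, 18.6% lower and a median of 0.05 over all tested unigenes. In mature leaves over roots 25 were higher and 1 lower, against 20.7% and 19.2% of all tested unigenes. In roots over stems 1 was higher and 16 lower, against 17.0% and 18.4%. Within the whole list 6 of 46 had no count in roots, as GGPPS12 had none. Of the 111318 unigenes, 23415 had none either, so nothing particular to the list is read from this.

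Among the shoot organs, more list members were called higher in leaf buds than lower. In leaf buds over stems 12 of 43 were higher and 1 lower, against 10.6% and 8.02% of all tested unigenes. In mature leaves over leaf buds 7 were higher and 13 lower, against 16.9% and 16.8%, and GGPPS12 was also lower. In mature leaves over stems 17 were higher and 6 lower, with a median log2 fold change of 0.64, against 18.4% and 15.5%. With library totals in place of TMM the last split was 11 higher and 8 lower, with a median of 0.25. Under that scaling the median of all tested unigenes shifted to -0.45 for mature leaves over leaf buds, -0.28 for mature leaves over stems and -0.43 for mature leaves over roots.

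By part of the pathway, 17 unigenes belonged to the MEP pathway, which supplies plastid isoprenoid units and holds DXS, its entry enzyme. In mature leaves over stems 9 of them were higher and 0 lower (3 and 1 with library totals), against 18.4% and 15.5% of all tested unigenes. In mature leaves over leaf buds 3 MEP unigenes were higher and 3 lower, close to the 16.9% and 16.8% of all tested unigenes. The 3 higher matched GCPE or ISPF, other enzymes of this pathway, and the 3 lower all matched DXS. The median log2 fold change of the 17 was 0.33 and turned to -0.15 with library totals. Several of the 17 match the same enzyme, and whether those belong to 1 gene was not tested. Of the 7 mevalonate pathway unigenes, with HMGR, its rate-limiting enzyme, 0 were called higher and 2 lower when mature leaves were set against leaf buds. The 2 lower matched HMGS (hydroxy-methyl-glutaryl-CoA synthase), and the HMGR unigene had a log2 fold change of -0.84, under the fold threshold. Of the 9 terpene synthase unigenes among the 43, which form the terpene skeletons, 4 were called higher and 4 lower for mature leaves over leaf buds. In leaf buds over roots 7 of these 9 were higher, against 22.8% of all tested unigenes. No such count was compared between the parts by a test.

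Of the 46, 2 were called in the same direction as GGPPS12 in all 5 comparisons in which GGPPS12 was called, and 0.746% of all other tested unigenes were (429 of 57487). With 2 members, nothing particular to the list is read from this. They were GGPPS11a and Cluster-12235.15041, which matches a tyrosine aminotransferase (TAT), an enzyme of tyrosine breakdown and of tocopherol supply. This TAT unigene had 5.12, 5.02 and 4.89 FPKM in fruits, against 1.61, 1.42 and 1.47 FPKM in leaf buds. Mature leaves had 0.39, 0.41 and 0.40 FPKM, stems 0.42, 0.50 and 0.78 FPKM, and roots 0.16, 0.11 and 0.03 FPKM. Its log2 fold change was -1.41 for mature leaves over leaf buds (SE 0.27, adjusted p = 1.5e-04, edgeR) and -0.09 for mature leaves over stems (SE 0.30, adjusted p = 0.85, edgeR).

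TPS03, annotated as a monoterpenoid synthase, had 1148, 1380 and 1198 FPKM in fruits, against 10.7, 9.27 and 7.93 FPKM in leaf buds. It had 3.33, 3.97 and 3.64 FPKM in mature leaves and 0, 0 and 0.08 FPKM in roots. Per FPKM of TPS03, GGPPS12 stood at 0.589, 0.558 and 0.522 in fruits and at 0.587, 0.724 and 0.483 in leaf buds, so the ranges of these 2 organs overlapped. In mature leaves this ratio was 0.189, 0.159 and 0.190, and in stems 0.035, 0.075 and 0.137. GGPPS12 was therefore scarcer relative to TPS03 in mature leaves and stems than in fruits and leaf buds in all libraries. TPS03 itself was at -0.87 on the log2 scale in mature leaves over leaf buds (SE 0.20, adjusted p = 8.1e-04, edgeR), under the fold threshold, and at 0.49 in leaf buds over stems (SE 0.19, adjusted p = 0.048, edgeR).

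The unigenes whose organ pattern was most like that of GGPPS12 were found by the root mean square difference of log2 ratios to fruits, over the 4 other organs and with 0.1 CPM added. For GGPPS12 these log2 ratios were -7.28 in leaf buds, -9.79 in mature leaves, -10.30 in stems and -13.18 in roots. Of 57487 other unigenes, 0 lay within 1 log2 unit of this pattern and 8 within 2. With 0.1 CPM added, unigenes of much lower fruit level could not come near the root ratio. These counts therefore do not show how rare the organ pattern is. The nearest was Cluster-12235.42586, with no annotation in the lists used, at a distance of 1.02. It had a mean of 604 ± 78.0 FPKM in fruits, against 4.38 ± 0.94 FPKM in leaf buds, 1.89 ± 0.12 FPKM in mature leaves, 1.22 ± 0.53 FPKM in stems and 0.023 ± 0.021 FPKM in roots (SD, n = 3 libraries each). The second nearest was Cluster-12235.42000, a monoterpenoid synthase unigene, at 1.39. It had 1711 ± 151 FPKM in fruits, against 17.7 ± 3.92 FPKM in leaf buds, 3.98 ± 0.40 FPKM in mature leaves, 9.12 ± 1.17 FPKM in stems and 0 in roots. TPS03 had rank 5, at 1.50, and it took the second place when FPKM replaced CPM. In stems the log2 ratio to fruits was -7.84 for Cluster-12235.42000 and -7.89 for TPS03, against -10.30 for GGPPS12.

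The next annotated unigenes stood farther off, with their largest differences from GGPPS12 in stems or roots. Their fruit levels were lower, so the difference in roots is in part set by the 0.1 CPM added. Cluster-12235.42500, annotated as an AAS or aromatic amino acid decarboxylase, was at 2.03. Cluster-12235.41896, annotated as a hydroxycinnamoyl transferase (HCT) of phenylpropanoid metabolism, was at 2.43, and Cluster-12235.43552, annotated as a beta-glucosidase, at 2.56. In stems GGPPS12 was at -10.30 on the log2 scale relative to fruits, and the HCT unigene was at -6.34. The other GGPPS unigenes were at a distance of 6.89 for GGPPS11a (rank 530 of 57487), 5.26 for GGPPS11b (rank 185) and 6.32 for GGPPS2 (rank 354). With 0.1 CPM added, the fruit level of a unigene limits how low its log2 ratio can go: GGPPS2, with no count in roots, was at -4.48 there, and GGPPS12, also with none, at -13.18. The distances and ranks given here therefore also reflect the fruit level, not the organ pattern alone. The distance includes the fruit level by which these unigenes were chosen, and it is given with no test.

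**Figure D5:**
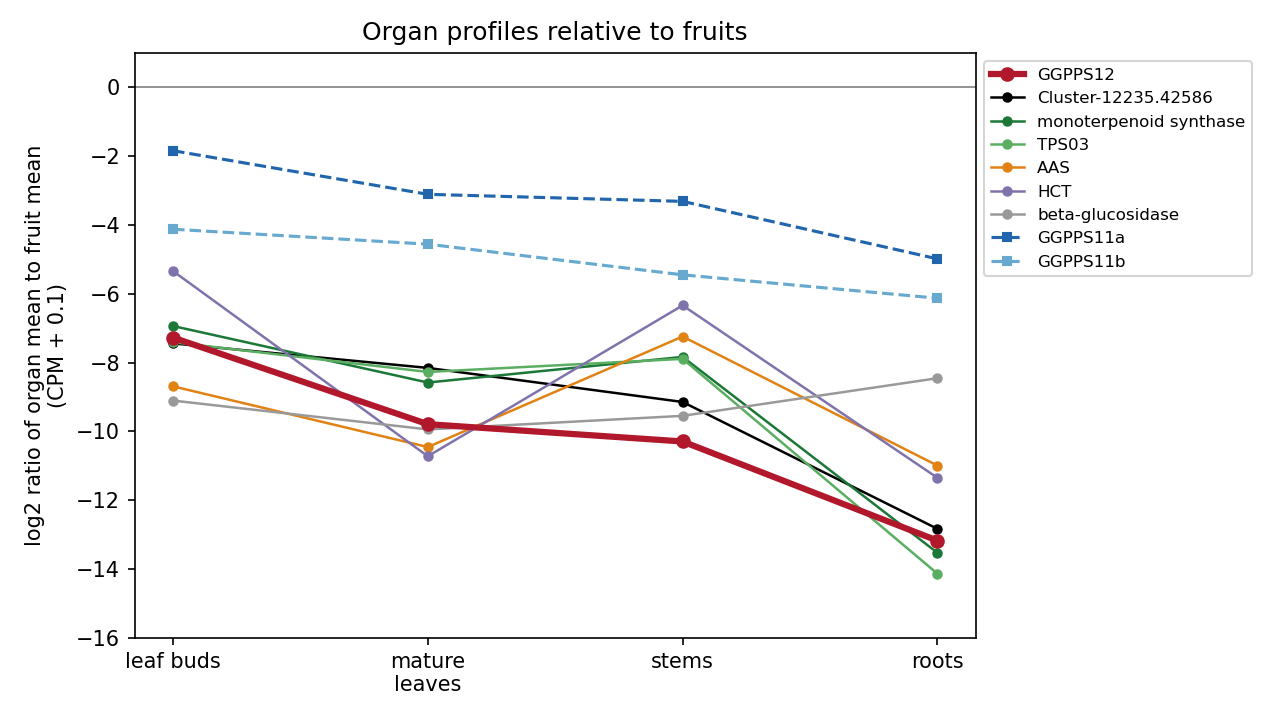
Log2 ratio of each organ's mean to the fruit mean (CPM with 0.1 added) for GGPPS12, the 6 unigenes named for the most similar pattern (solid lines) and the pair of GGPPS11 unigenes (dashed lines). GGPPS12 is at -7.28 in leaf buds and -13.18 in roots, and both GGPPS11 lines lie above it in every organ.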

How the data were processed

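Total RNA of 15 libraries, 3 per organ, was sequenced on an Illumina HiSeq platform, and CASAVA 1.8 is named in the submitters' processing notes. The authors assembled the reads of all libraries without a genome and deposited 2 values for each unigene and library, an estimated count that can be fractional and an FPKM. The aligner and counter were not given in the sources used here. Stem tables, whose columns carry another abbreviation, were taken as stems because their samples are so labelled. Annotations came from the supplementary lists of the study.

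Rounded estimated counts entered edgeR 4.0.16 (R 4.3.3) with TMM, filterByExpr (minimum count 10, minimum total count 15), and the quasi-likelihood F test in 1 fit of 15 libraries and 5 groups, with Benjamini-Hochberg adjustment over 57488 unigenes and a prior count of 0.125. A unigene was called at an adjusted p below 0.05 with a log2 fold change beyond 1 in either direction. The scripts were tested on simulated data. Intervals and floors cover counting error only.

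The unigenes named were GGPPS12, the other GGPPS unigenes, TPS03, Cluster-12235.42000, the list members called as GGPPS12 was in every comparison in which it was called, and the 2 nearest of all and 5 nearest annotated patterns. This choice and the lists were made with earlier results of these data known. Alternatives were DESeq2 1.42.0 (size factors, Wald test), library totals, no filter, 12 libraries without fruits, a replicate block and leaving out each library. Python 3.11.15, pandas 2.3.3, numpy 2.4.6, scipy 1.17.1 and matplotlib 3.10.9 were used.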

Additional observations from a re-analysis of the deposited data

How the results depend on the processing

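Every comparison of GGPPS12 between organs other than fruits kept its direction in all alternatives run, and its side of the threshold in all but 1. Without stem replicate 3 the log2 fold change of mature leaves over stems was 1.59 and passed the threshold. Over the leave-one-out fits it lay between 0.17 and 1.59. It lay between -2.83 and -2.45 for mature leaves over leaf buds, 2.78 and 4.20 for leaf buds over stems, and -7.19 and -5.77 for roots over stems. Without roots, a choice made after seeing the data, the p of the share (exact permutation test) was 0.13. Over the leave-one-out tests it lay between 1.9e-04, without stem replicate 3, and 0.025. With library totals, mature leaves over leaf buds had 6673 unigenes higher and 15113 lower, against 9731 and 9640 with TMM. Under that scaling mature leaves over stems had 7720 higher and 12405 lower, against 10589 and 8900 with TMM, and mature leaves over roots 9020 and 16608, against 11888 and 11045 with TMM; the cause was not tested.

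With the replicate number as a block, the log2 fold change of GGPPS12 was -2.62 for mature leaves over leaf buds, 3.18 for leaf buds over stems and 0.56 for mature leaves over stems, and no call changed. No pairing by number was seen: 30 same-numbered pairs of different organs had correlations of deviations between -0.129 and 0.069, with 0 over 0.1. Whether same-numbered libraries shared plants cannot be told from this. Of the other unigenes named, GGPPS11b passed the threshold in mature leaves over stems without stem replicate 3 (1.56) and without leaf bud replicate 2 or 3 (1.15 each). Cluster-12235.42000 passed it in leaf buds over stems without leaf bud replicate 3 (1.03) and with library totals (1.005), which also gave -1.16 in mature leaves over stems and, for TPS03, -1.36 in mature leaves over leaf buds. The fit of 12 libraries without fruits tested 43 of the 46 list members. Few counts in mature leaves, stems and roots limit all values of GGPPS12 there, and 3 libraries per organ limit each spread.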
